A study of Mus musculus with 10 samples.

Results

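The expression of 44 genes of mitosis and the spindle checkpoint was followed in neuroblastomas of 10 transgenic mice. The 44 were named as a list, and each was found on the arrays by its gene name and represented by the probe of highest mean intensity. All 44 had a probe, and 43 of them were among the 22263 genes tested; the only probe of Aurkb, the kinase of the chromosomal passenger complex, was not well above background on any array and was left out. The comparison asks which transcripts differ when mutant ALK is added to MYCN.

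In 5 mice, called ALK/MYCN here, the tumours arose with the F1174L form of ALK, a receptor tyrosine kinase (genotype ALK+/-), together with a MYCN transgene (MYCN+/-), on a C57BL/6 x 129X1/SvJ background. In the other 5, called MYCN, they arose with the MYCN transgene and no ALK transgene, on a 129X1/SvJ background. All tumours were untreated and all carried MYCN. Genotype and strain background therefore cannot be told apart in any difference below, and the ages of the mice and the promoters of the transgenes are not given in the sources used here. Each tumour came from a different mouse, per the labels, so the replicates are separate animals. On each array the Cy3 channel held RNA of 1 tumour and the Cy5 channel a common reference, RNA of 11 mouse cell lines combined. Values are log2 ratios of tumour over reference, so that 0 means the same signal in both, and they are compared between tumours for 1 gene at a time. A difference is the ALK/MYCN mean minus the MYCN mean of these ratios, given ± its standard error.

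Cells enter mitosis when cyclin B and Cdk1 become active, with Cdc25 phosphatases and Polo-like and Aurora kinases driving the switch. Chromosomes are condensed, attached to the spindle at their kinetochores and held together until the spindle checkpoint is satisfied. The anaphase-promoting complex (APC/C) with Cdc20 then marks securin and cyclin B for destruction, separase cuts cohesin, and the cell divides. Most of these genes are transcribed together late in the cell cycle, under the MuvB complex with B-Myb (Mybl2) and FoxM1, so that in bulk tissue their level follows the share of dividing cells. In these bulk tumours, fewer dividing cells and less RNA per cell cannot be told apart.

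The labelled tissue was checked against its markers. All 10 neuroblast markers, among them Hand2 and Dbh, were well above background on every array, and 3 of the 10 (Th, Isl1 and Ddc) were higher in ALK/MYCN tumours. The mouse Mycn probe gave 3.26, 2.89, 3.27, 4.83 and 3.98 in ALK/MYCN tumours 1 to 5, against 0.33, 0.40, 1.21, 0.84 and 1.24 in MYCN tumours 1 to 5, so that every ALK/MYCN value was above every MYCN value. Its difference was 2.85 ± 0.35 (limma adjusted p = 0.000762). The Alk probe gave 4.35 ± 0.48 across ALK/MYCN tumours, against 4.28 ± 0.042 across MYCN tumours (SD, n = 5 each), with overlapping groups and limma adjusted p = 0.837. Neither probe was shown to detect the transgene, so these values do not check the labels. Between 53.8% and 58.7% of probe spots per array were well above background in Cy3, and precision is limited by the number of arrays. The arrays lay on 3 slides: ALK/MYCN tumour 2 and MYCN tumour 1 shared slide 1, ALK/MYCN tumours 1, 3 and 4 and MYCN tumour 4 shared slide 2, and the others shared slide 3.

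Many mitosis genes were lower in ALK/MYCN than in MYCN tumours, among them checkpoint, kinase, kinetochore and transcription factor genes. Of the 43 tested, 21 (48.8%) were lower at a limma adjusted p under 0.05, against 12.2% of all genes tested, and 0 were higher, against 14.2% of all genes. At an unadjusted p under 0.05, 4 more were lower (Mki67, Birc5, Cdca8 and Ncaph) and again 0 were higher. The median difference of the 43 was -0.28, with a range of -0.80 to 0.19, and the median of all genes was -0.004. In 17 of the 43 (39.5%) every ALK/MYCN value lay below every MYCN value, against 8.6% of all genes; 16 of these 17 were among the 21, and the other was Cdca8. A negative difference was measured in 40 of 43 genes; the exceptions were Bub3, Ube2c and Prc1.

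Each such difference is measured against the rest of the array. When each array was instead centred on its spike-in control spots, the median difference of all genes was 0.25 instead of -0.004, and 91.4% of all called genes were higher, against 53.8% without it. On that scale 6 mitosis genes were lower (Plk1, Bub1b, Cdc20, Espl1, Cenpe and Mybl2) and 3 were higher (Ube2c, Hmmr and Prc1), with a median of -0.019; 3.72% of all genes were then lower and 39.7% higher. The median of the mitosis genes minus that of all genes was -0.27 on either scale. This could not differ, because the centring takes the same amount off every gene of an array, so it gives no further support. The 6 were lower at the threshold in all 28 alternatives tried, and the 21 kept a negative difference in each of them. No alternative used a further probe of a gene alone. Of the 6, only Mybl2 had a further kept probe, which differed by -0.032 ± 0.10 (limma adjusted p = 0.852).

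**Figure D1:**
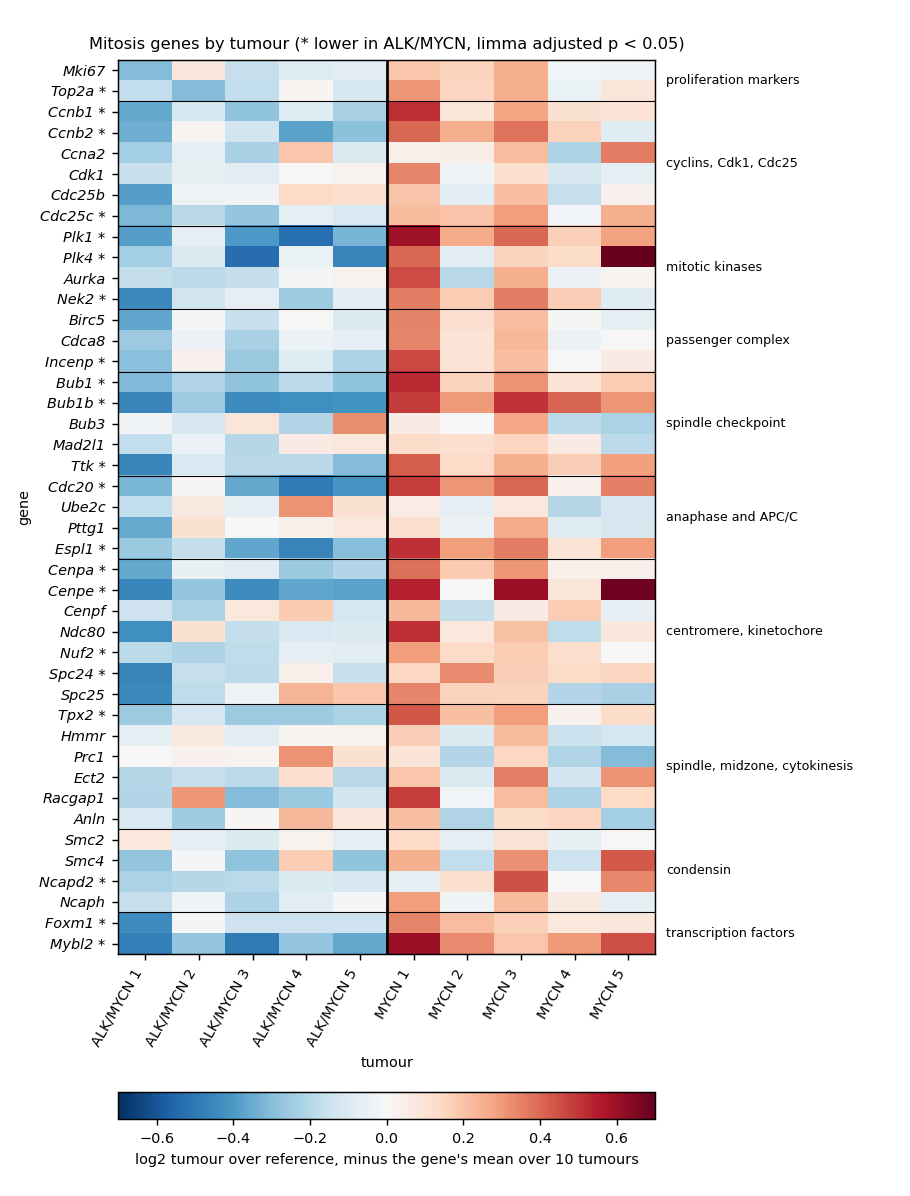
Log2 tumour over reference ratio of the 43 measured mitosis genes (down the page, by role) in the 5 ALK/MYCN and 5 MYCN tumours (across), each gene with its mean over the 10 tumours taken off and shown as colour. Blue fills most of the ALK/MYCN columns and red most of the MYCN columns, without scaling between arrays; 21 genes with a star were lower at limma adjusted p under 0.05, of which 6 also after spike-in centring.

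**Figure D2:**
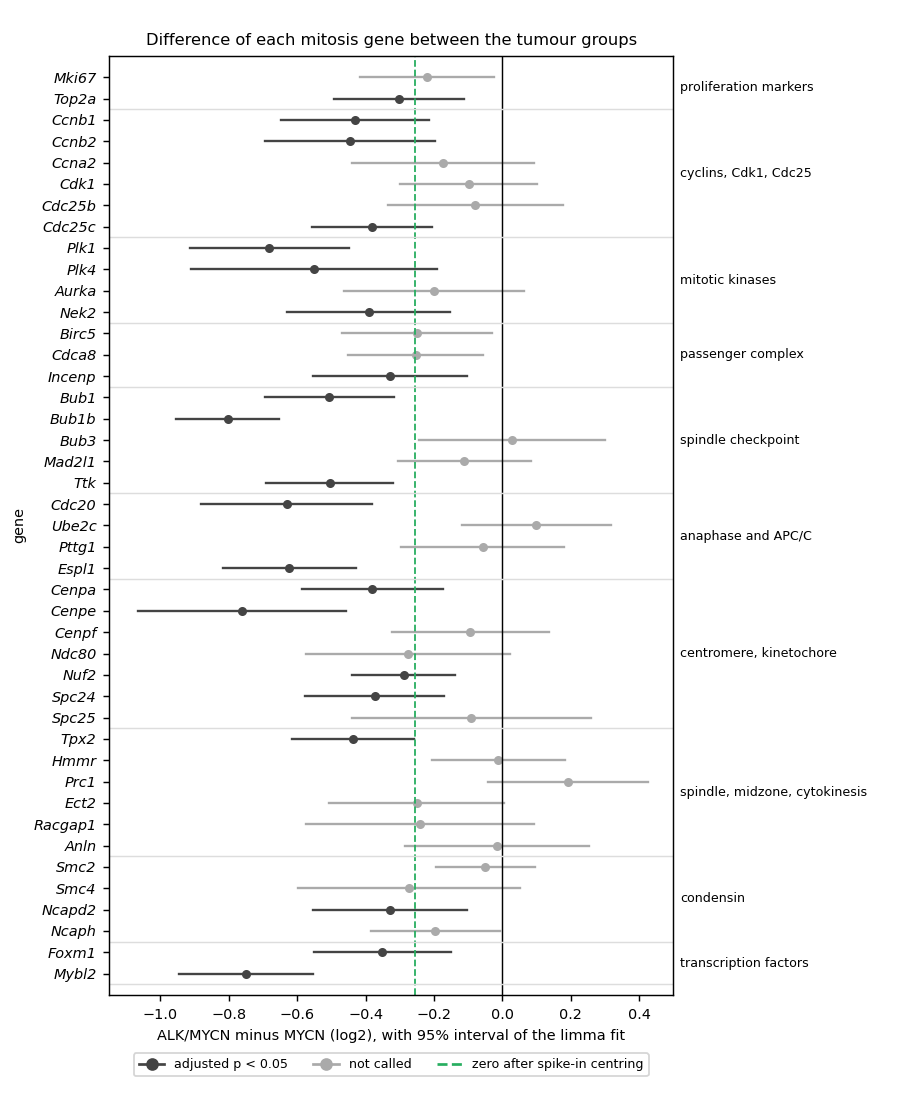
ALK/MYCN minus MYCN difference (log2, horizontal axis) of each measured mitosis gene, with the 95% interval of the limma fit as a bar. The values run from -0.80 (Bub1b) to 0.19 (Prc1), and the dashed line marks where a difference of 0 would lie after centring on spike-in spots, to the right of which 20 genes lie.

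The 2 proliferation markers of the list were Top2a, the topoisomerase that untangles sister chromatids, and Mki67, the Ki-67 antigen of cycling cells. Top2a measured -0.048, -0.18, -0.045, 0.14 and 0.004 in ALK/MYCN tumours 1 to 5, against 0.44, 0.28, 0.38, 0.078 and 0.21 in MYCN tumours 1 to 5. The ALK/MYCN values lay at or below 0.14, and only the lowest MYCN value, that of tumour 4, fell within their range. The difference of -0.30 ± 0.085 (limma adjusted p = 0.0271) passed the threshold, but was lost in 14 of the 28 alternatives, among them spike-in centring, slide as a block, the deposited value table, Cy3 alone and leaving out ALK/MYCN tumour 1, 2, 3 or 5 or MYCN tumour 1 or 3. For Mki67 the values were 0.57, 0.95, 0.71, 0.79 and 0.80 in the ALK/MYCN tumours and 1.07, 1.03, 1.13, 0.85 and 0.85 in the MYCN tumours. The groups overlapped through ALK/MYCN tumour 2, and the difference of -0.22 ± 0.088 (limma adjusted p = 0.089) did not pass.

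Among the 6 genes of cyclins, Cdk1 and Cdc25 phosphatases, 3 were lower: Ccnb1 and Ccnb2, the B-type cyclins that activate Cdk1, and Cdc25c, a phosphatase that removes its inhibitory phosphates. Ccnb1 measured 0.72, 0.95, 0.80, 0.99 and 0.85 in ALK/MYCN tumours 1 to 5, against 1.59, 1.16, 1.35, 1.19 and 1.17 in MYCN tumours 1 to 5. All 5 ALK/MYCN tumours lay below all 5 MYCN tumours, with MYCN tumour 1 the highest, and the difference was -0.43 ± 0.097 (limma adjusted p = 0.0108). Both further probes of Ccnb1 were also lower, by -0.58 and -0.65. For Ccnb2 the ratios were 0.20, 0.56, 0.41, 0.17 and 0.25 in the ALK/MYCN tumours and 0.95, 0.80, 0.92, 0.70 and 0.46 in the MYCN tumours. MYCN tumour 5 fell inside the range of the ALK/MYCN tumours, and the difference was -0.45 ± 0.11 (limma adjusted p = 0.0167). Cdc25c gave 0.41, 0.53, 0.46, 0.66 and 0.62 in ALK/MYCN tumours 1 to 5, against 0.95, 0.93, 1.02, 0.71 and 0.98 in MYCN tumours 1 to 5, with no overlap and a difference of -0.38 ± 0.079 (limma adjusted p = 0.0071). Its reference channel was itself 0.14 higher in the ALK/MYCN arrays, and the call was lost when Cy3 was used alone. None of the 3 was called after spike-in centring.

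The other 3 of these genes did not pass. Ccna2, the cyclin of S phase and early mitosis, measured 0.45, 0.63, 0.47, 0.89 and 0.59 in the ALK/MYCN tumours and 0.73, 0.74, 0.91, 0.48 and 1.05 in the MYCN tumours. Its groups overlapped widely, with MYCN tumour 5 the highest and ALK/MYCN tumour 1 the lowest, and the difference was -0.17 ± 0.12 (limma adjusted p = 0.313). Cdk1 itself averaged -0.28 ± 0.071 across ALK/MYCN tumours, against -0.18 ± 0.18 across MYCN tumours (SD, n = 5 each), and differed by -0.099 ± 0.090 (limma adjusted p = 0.452). Cdc25b, the phosphatase that acts first at centrosomes, differed by -0.079 ± 0.12 (limma adjusted p = 0.653). All 3 differences were positive, not negative, after spike-in centring.

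Of the 4 mitotic kinases, 3 were lower. Plk1, the Polo-like kinase needed for centrosome maturation and chromosome separation (chr7:129313220-129313279, plus strand in mm9), measured 0.43, 0.75, 0.41, 0.29 and 0.49 in ALK/MYCN tumours 1 to 5, against 1.41, 1.08, 1.22, 0.98 and 1.10 in MYCN tumours 1 to 5. The highest ALK/MYCN value, 0.75 in tumour 2, was below the lowest MYCN value, 0.98 in tumour 4. The difference of -0.68 ± 0.11 (limma adjusted p = 0.00189) put the ALK/MYCN mean at 62.3% of the MYCN mean on the linear scale, and it was -0.66, -0.61 and -0.64 within slides 1, 2 and 3. Plk4, the kinase that starts centriole duplication, gave 0.36, 0.50, 0.067, 0.55 and 0.14 in ALK/MYCN tumours 1 to 5, against 1.00, 0.52, 0.75, 0.73 and 1.37 in MYCN tumours 1 to 5. MYCN tumour 5 stood highest and MYCN tumour 2 lay within the ALK/MYCN range. Its difference of -0.55 ± 0.16 (limma adjusted p = 0.0318) was lost in 12 of the 28 alternatives, among them slide as a block, the deposited value table, Cy3 alone and leaving out ALK/MYCN tumour 1, 3 or 5 or MYCN tumour 1.

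Nek2, a kinase that separates centrosomes, measured -0.54, -0.23, -0.16, -0.34 and -0.16 in the ALK/MYCN tumours and 0.27, 0.089, 0.27, 0.083 and -0.18 in the MYCN tumours. ALK/MYCN tumour 1 was the lowest and MYCN tumour 5 lay among the ALK/MYCN tumours. The difference was -0.39 ± 0.11 (limma adjusted p = 0.0244), and it was lost in 11 of the 28, among them slide as a block, stromal markers as a covariate, the deposited value table, Cy3 alone and leaving out ALK/MYCN tumour 4 or MYCN tumour 1 or 3. Aurka, the Aurora kinase of spindle poles, gave -0.12, -0.14, -0.12, 0.045 and 0.075 in the ALK/MYCN tumours and 0.51, -0.14, 0.30, 0.012 and 0.072 in the MYCN tumours. Only MYCN tumours 1 and 3 stood clearly above the rest, and the difference of -0.20 ± 0.12 (limma adjusted p = 0.239) did not pass. After spike-in centring only Plk1 of the 4 was called.

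The chromosomal passenger complex corrects wrong attachments of chromosomes to the spindle. Of its 3 measured subunits, Incenp, the scaffold, was lower, and Cdca8 (borealin) and Birc5 (survivin) did not pass. Incenp measured -0.17, 0.15, -0.14, 0.036 and -0.092 in ALK/MYCN tumours 1 to 5, against 0.58, 0.22, 0.33, 0.13 and 0.18 in MYCN tumours 1 to 5. ALK/MYCN tumour 2 reached above MYCN tumour 4, and the difference was -0.33 ± 0.10 (limma adjusted p = 0.0368). That call was lost in 13 of the 28 alternatives, among them Cy3 alone, no filter on dim probes and leaving out ALK/MYCN tumour 1, 3, 4 or 5 or MYCN tumour 1, 2 or 3. Cdca8 gave 0.27, 0.49, 0.30, 0.49 and 0.46 in the ALK/MYCN tumours and 0.87, 0.62, 0.76, 0.49 and 0.53 in the MYCN tumours. The highest ALK/MYCN value and the lowest MYCN value, both in tumour 4, were almost equal, and the difference was -0.25 ± 0.089 (limma adjusted p = 0.0595). Birc5 was at 0.24, 0.60, 0.45, 0.61 and 0.51 in the ALK/MYCN tumours and 0.95, 0.73, 0.82, 0.62 and 0.55 in the MYCN tumours. ALK/MYCN tumours 2 and 4 overlapped the MYCN tumours, with a difference of -0.25 ± 0.099 (limma adjusted p = 0.0876). Birc5 has 2 further probes, at other positions, that were lower by -0.46 ± 0.083 and -0.40 ± 0.087 (limma adjusted p = 0.00393 and 0.00929). None of these probes of highest intensity was called after spike-in centring.

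Of the 5 spindle checkpoint genes, 3 were lower, and Bub1b had the largest difference of the 43 genes. Bub1b encodes BubR1, a subunit of the mitotic checkpoint complex that holds back the APC/C; its probe lies at chr2:118466830-118466889, plus strand (mm9). It measured -0.10, 0.10, -0.085, -0.070 and -0.056 in ALK/MYCN tumours 1 to 5, against 0.85, 0.66, 0.86, 0.77 and 0.67 in MYCN tumours 1 to 5. The 5 ALK/MYCN tumours lay between -0.10 and 0.10 and the 5 MYCN tumours between 0.66 and 0.86, with a gap wider than the range of either group. The difference of -0.80 ± 0.068 (limma adjusted p = 0.000187) put ALK/MYCN tumours at 57.3% of the MYCN mean. Within slides 1, 2 and 3 it was -0.75, -0.85 and -0.79.

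Ttk, the Mps1 kinase that starts checkpoint signalling at kinetochores, gave 0.27, 0.62, 0.53, 0.53 and 0.42 in ALK/MYCN tumours 1 to 5, against 1.15, 0.86, 0.97, 0.90 and 1.01 in MYCN tumours 1 to 5. Every ALK/MYCN tumour was below every MYCN tumour, and the difference was -0.51 ± 0.083 (limma adjusted p = 0.00265). Bub1, the kinase that brings checkpoint proteins to the kinetochore, measured -0.50, -0.41, -0.48, -0.38 and -0.48 in the ALK/MYCN tumours and 0.33, -0.038, 0.12, -0.10 and -0.016 in the MYCN tumours. The ALK/MYCN values were close together and all below the MYCN values, of which tumour 1 was the highest. The difference was -0.51 ± 0.085 (limma adjusted p = 0.0028). Neither Ttk nor Bub1 was called after spike-in centring.

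The remaining pair of checkpoint genes showed no such separation. Mad2l1, the Mad2 subunit that binds Cdc20, was at -0.29, -0.16, -0.32, -0.061 and -0.043 in the ALK/MYCN tumours and 0.012, 0.001, 0.033, -0.062 and -0.30 in the MYCN tumours. MYCN tumour 5 was nearly as low as the lowest ALK/MYCN tumour, and the difference was -0.11 ± 0.087 (limma adjusted p = 0.38). Bub3, the partner that carries Bub1 and BubR1 to kinetochores, averaged 0.74 ± 0.21 across ALK/MYCN tumours, against 0.71 ± 0.20 across MYCN tumours (SD, n = 5 each), with overlapping groups. Its difference of 0.029 ± 0.12 (limma adjusted p = 0.886) changed sign with several settings. The checkpoint genes thus ranged from the largest difference of the 43 genes to one near 0.

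Anaphase is set off by Cdc20, the APC/C activator, Ube2c, its ubiquitin-conjugating enzyme, Pttg1 (securin) and Espl1 (separase). Espl1, at chr15:102153644-102153882, plus strand (mm9), measured 0.023, 0.12, -0.084, -0.19 and -0.018 in ALK/MYCN tumours 1 to 5, against 0.79, 0.57, 0.64, 0.38 and 0.58 in MYCN tumours 1 to 5. No ALK/MYCN tumour exceeded 0.12 and no MYCN tumour was below 0.38, and the difference was -0.62 ± 0.087 (limma adjusted p = 0.00121), or 64.9% of the MYCN mean. Cdc20, at chr4:118105534-118105593, minus strand (mm9), gave 0.10, 0.43, 0.068, -0.071 and 0.012 in ALK/MYCN tumours 1 to 5, against 0.91, 0.73, 0.83, 0.46 and 0.78 in MYCN tumours 1 to 5. ALK/MYCN tumour 2 came close to MYCN tumour 4, but the groups did not overlap, and the difference was -0.63 ± 0.11 (limma adjusted p = 0.00376), or 64.6% of the MYCN mean. Both stayed lower after spike-in centring.

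Ube2c and Pttg1 did not follow them. Ube2c measured 0.76, 0.99, 0.86, 1.25 and 1.04 in the ALK/MYCN tumours and 0.98, 0.87, 1.00, 0.73 and 0.81 in the MYCN tumours. ALK/MYCN tumour 4 was the highest of the 10, the groups overlapped, and the difference was 0.099 ± 0.098 (limma adjusted p = 0.49). After spike-in centring Ube2c was called higher. Pttg1 averaged -0.48 ± 0.19 across ALK/MYCN tumours, against -0.42 ± 0.16 across MYCN tumours (SD, n = 5 each), and differed by -0.057 ± 0.11 (limma adjusted p = 0.73), with ALK/MYCN tumour 1 below the other 9.

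**Figure D3:**
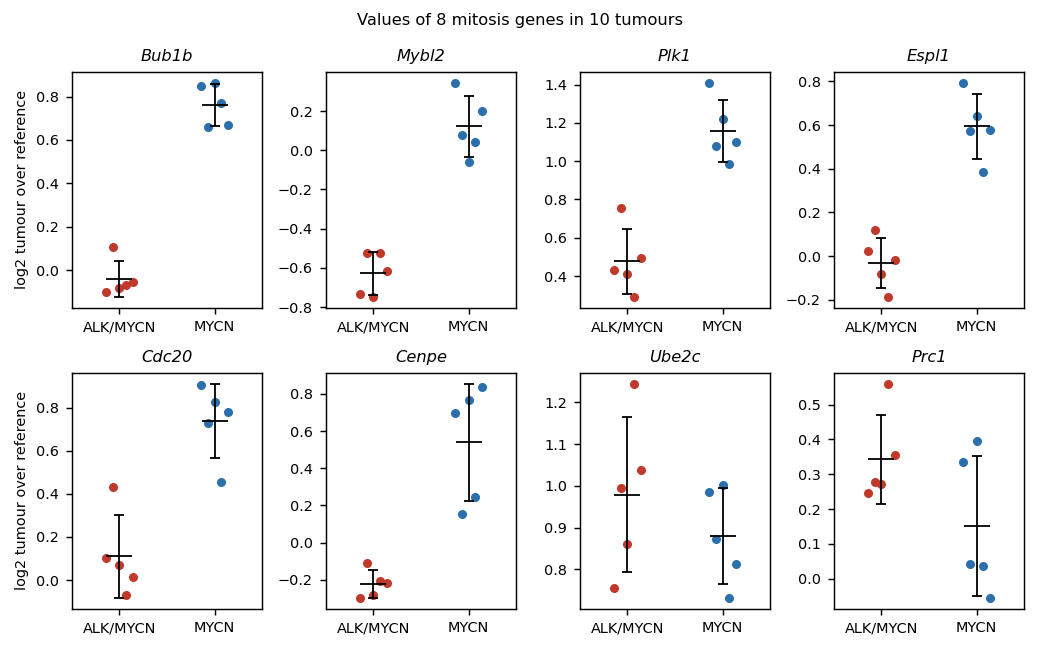
Log2 tumour over reference ratio (vertical axis, own range in each panel) of 8 mitosis genes in the 5 ALK/MYCN tumours (left) and 5 MYCN tumours (right), with the mean and SD as bars and no scaling between arrays. Bub1b, Mybl2, Plk1, Espl1, Cdc20 and Cenpe do not overlap between the groups, while Ube2c and Prc1 do; the last 2 were called higher only after spike-in centring.

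Centromere and kinetochore genes were lower in 4 of 7 cases, and the other 3 also had negative differences, which for Cenpf and Spc25 turned positive after spike-in centring. Cenpe, a kinesin that moves chromosomes to the spindle equator (chr3:134936387-134936446, plus strand in mm9), measured -0.30, -0.11, -0.28, -0.20 and -0.22 in ALK/MYCN tumours 1 to 5, against 0.70, 0.16, 0.77, 0.24 and 0.84 in MYCN tumours 1 to 5. The ALK/MYCN tumours lay close together, and the MYCN tumours spread widely, with tumours 2 and 4 well below tumours 1, 3 and 5. The difference was -0.76 ± 0.14 (limma adjusted p = 0.00385), or 59.0% of the MYCN mean, and it remained called after spike-in centring. Cenpa, the histone variant that marks the centromere, averaged 0.25 ± 0.13 across ALK/MYCN tumours, against 0.63 ± 0.16 across MYCN tumours (SD, n = 5 each), and differed by -0.38 ± 0.093 (limma adjusted p = 0.015) without overlap.

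The Ndc80 complex, which grips spindle microtubules, has 4 subunits, all in the list. Nuf2 measured -0.067, -0.093, -0.051, 0.062 and 0.047 in the ALK/MYCN tumours and 0.42, 0.26, 0.30, 0.25 and 0.12 in the MYCN tumours. All ALK/MYCN values were below all MYCN values, and the difference was -0.29 ± 0.068 (limma adjusted p = 0.0127). Spc24 gave -0.44, -0.14, -0.16, 0.066 and -0.13 in the ALK/MYCN tumours and 0.17, 0.36, 0.20, 0.16 and 0.18 in the MYCN tumours. MYCN tumour 2 stood above the other MYCN tumours, the groups did not overlap, and the difference was -0.37 ± 0.091 (limma adjusted p = 0.0144). Ndc80 itself was at -0.13, 0.41, 0.14, 0.19 and 0.21 in the ALK/MYCN tumours and 0.81, 0.38, 0.51, 0.13 and 0.38 in the MYCN tumours. MYCN tumours 2, 4 and 5 lay in the range of the ALK/MYCN tumours, and the difference of -0.28 ± 0.13 (limma adjusted p = 0.154) did not pass. Spc25, with 0.73 ± 0.28 across ALK/MYCN tumours, against 0.83 ± 0.25 across MYCN tumours (SD, n = 5 each), differed by -0.091 ± 0.16 (limma adjusted p = 0.704). Cenpf, a large kinetochore and nuclear matrix protein, differed by -0.094 ± 0.10 (limma adjusted p = 0.541), and its reference channel was 0.38 higher on the ALK/MYCN arrays. Of the 4 called genes only Cenpe was called after spike-in centring.

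Among the 6 genes of spindle assembly, midzone and cytokinesis, 1 was lower. Tpx2, which activates Aurora A and nucleates microtubules near chromosomes, measured -0.51, -0.37, -0.51, -0.51 and -0.48 in ALK/MYCN tumours 1 to 5, against 0.18, -0.048, 0.034, -0.23 and -0.13 in MYCN tumours 1 to 5. The ALK/MYCN tumours lay between -0.51 and -0.37, below all MYCN tumours, and the difference was -0.44 ± 0.080 (limma adjusted p = 0.00424), lost after spike-in centring. Ect2, the exchange factor that activates RhoA at the cleavage site, gave 0.19, 0.22, 0.20, 0.50 and 0.19 in the ALK/MYCN tumours and 0.58, 0.28, 0.74, 0.25 and 0.70 in the MYCN tumours. ALK/MYCN tumour 4 lay among the MYCN tumours and the other 4 below them, with a difference of -0.25 ± 0.12 (limma adjusted p = 0.137). Prc1, the bundler of antiparallel microtubules at the midzone, was at 0.25, 0.28, 0.27, 0.56 and 0.36 in the ALK/MYCN tumours and 0.34, 0.044, 0.39, 0.038 and -0.055 in the MYCN tumours. MYCN tumours 2, 4 and 5 were the 3 lowest and ALK/MYCN tumour 4 the highest, and the difference of 0.19 ± 0.11 (limma adjusted p = 0.207) did not pass; it was called higher after spike-in centring.

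The others of this role did not pass. Racgap1, the GTPase-activating subunit of centralspindlin, differed by -0.24 ± 0.15 (limma adjusted p = 0.261). Anln (anillin, the scaffold of the contractile ring) differed by -0.017 ± 0.12 (limma adjusted p = 0.934). Hmmr, a microtubule-binding spindle protein, averaged 0.49 ± 0.062 across ALK/MYCN tumours, against 0.50 ± 0.18 across MYCN tumours (SD, n = 5 each) and differed by -0.012 ± 0.088 (limma adjusted p = 0.935). After spike-in centring all 3 were positive and Hmmr was called higher.

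Condensin I compacts chromosomes, with Smc2 and Smc4 as its ATPase arms and Ncapd2 and Ncaph among its other subunits. Ncapd2 measured 0.84, 0.86, 0.87, 0.97 and 0.94 in ALK/MYCN tumours 1 to 5, against 0.99, 1.17, 1.51, 1.06 and 1.40 in MYCN tumours 1 to 5. The ALK/MYCN tumours lay between 0.84 and 0.97 and MYCN tumour 1, at 0.99, just above them. The difference was -0.33 ± 0.10 (limma adjusted p = 0.0373). It was lost in 14 of the 28 alternatives, among them spike-in centring, slide as a block, no filter on dim probes and leaving out any ALK/MYCN tumour or MYCN tumour 2, 3 or 5. Ncaph gave 0.18, 0.31, 0.13, 0.27 and 0.34 in the ALK/MYCN tumours and 0.64, 0.32, 0.56, 0.41 and 0.28 in the MYCN tumours. MYCN tumours 2 and 5 overlapped the ALK/MYCN tumours, with a difference of -0.20 ± 0.084 (limma adjusted p = 0.113). Smc4 was at -0.40, -0.14, -0.41, 0.055 and -0.41 in the ALK/MYCN tumours and 0.13, -0.30, 0.20, -0.27 and 0.31 in the MYCN tumours. ALK/MYCN tumours 2 and 4 and MYCN tumours 2 and 4 lay in the range of the other group, with a difference of -0.27 ± 0.15 (limma adjusted p = 0.192). Smc2 differed by -0.050 ± 0.065 (limma adjusted p = 0.604), and Smc2 and Ncaph turned positive after spike-in centring. Of the 4 other condensin genes on the array 0 were called in the limma fit, where 12.2% of all genes were lower and 14.2% higher. Of the 4, 1 (Ncapg2, lower) had an unadjusted p under 0.05 in that fit. After spike-in centring 1 was called higher, against 39.7% of all genes.

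Both transcription factors were lower. Mybl2, or B-Myb, which binds MuvB to switch on late cell cycle genes (chr2:162909345-162909404, plus strand in mm9), measured -0.73, -0.52, -0.75, -0.52 and -0.61 in ALK/MYCN tumours 1 to 5, against 0.35, 0.077, -0.058, 0.043 and 0.20 in MYCN tumours 1 to 5. All ALK/MYCN tumours lay at or below -0.52 and all MYCN tumours at or above -0.058. The difference of -0.75 ± 0.088 (limma adjusted p = 0.000624) put ALK/MYCN tumours at 59.5% of the MYCN mean, and within slides 1, 2 and 3 it was -0.87, -0.71 and -0.69. Foxm1, the forkhead factor that follows B-Myb on these promoters, gave -0.79, -0.35, -0.49, -0.49 and -0.49 in ALK/MYCN tumours 1 to 5, against -0.005, -0.13, -0.18, -0.28 and -0.27 in MYCN tumours 1 to 5. ALK/MYCN tumour 1 was far below the other ALK/MYCN tumours, no value of one group lay within the range of the other, and the difference was -0.35 ± 0.090 (limma adjusted p = 0.0182). Mybl2 stayed lower after spike-in centring and Foxm1 was not called there.

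For some genes the result depended on the probe. Of the 43 genes, 15 had several kept probes, with 18 further probes in all. Of 7 further probes of genes that were lower, 3 were lower too (both of Ccnb1 and that of Incenp), and those of Foxm1, Mybl2, Nuf2 and Tpx2 were not called. The probe pairs of Mybl2 and Tpx2 are shown because they disagreed most. The first 30 bases of each 60-base probe follow, from the array files, with no part in capitals because no feature is compared.
Mybl2 probe at chr2:162909345-162909404 (mm9, plus strand): gggtgcgcctttcctcgtctcctgttggta
Mybl2 probe at chr2:162910364-162910423 (mm9, plus strand): cagacacacccaaatgtgtcttctggtcag
Tpx2 probe at chr2:152719476-152719535 (mm9, plus strand): cgccatgtttggaaacacacctgataacta
Tpx2 probe at chr2:152720285-152720344 (mm9, plus strand): gcccagtgcaaaggcatgtatttcaactta
In the fit over all kept probes the first Mybl2 probe differed by -0.75 ± 0.089 (limma adjusted p = 6.27e-04) and the downstream one by -0.032 ± 0.10 (adjusted p = 0.852). The first Tpx2 probe differed by -0.44 ± 0.081 (limma adjusted p = 0.00441) and the downstream one by 0.15 ± 0.089 (adjusted p = 0.229). Which transcripts each probe detects was not tested. With the probes of a gene averaged, 18 of the 21 were still lower, without Nuf2, Tpx2 and Foxm1, and Birc5 was lower as well, 19 in all, against 11.9% of all genes.

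Single tumours carried much of the spread. The mean over the 43 genes of each ratio, after taking off the gene's mean over 10 tumours, was -0.27, -0.084, -0.19, -0.078 and -0.12 in ALK/MYCN tumours 1 to 5 and 0.32, 0.073, 0.25, 0.008 and 0.099 in MYCN tumours 1 to 5. The groups did not overlap on this scale, and MYCN tumour 4 came nearest to the ALK/MYCN tumours. ALK/MYCN tumour 1 was the lowest of the 10 tumours for 22 of the 43 genes, and MYCN tumour 1 was the highest for 24 and MYCN tumour 3 for 10. The lowest tumour was an ALK/MYCN tumour for 38 genes and the highest a MYCN tumour for 39. After spike-in centring the same means were -0.030, -0.007, -0.081, 0.007 and 0.004 in ALK/MYCN tumours 1 to 5 and 0.20, -0.15, 0.030, -0.10 and 0.13 in MYCN tumours 1 to 5, and the groups overlapped, with the ALK/MYCN tumours close together inside the range of the MYCN tumours.

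Within slides the direction was the same on average. The mean difference over the 43 genes was -0.40 on slide 1, -0.19 on slide 2 and -0.27 on slide 3, and 42, 32 and 33 genes had negative differences there. All 21 genes that were lower had a negative difference on each of the 3 slides. They were called on these same arrays, so this agreement is partly built in and is no separate support. On every slide at least 1 group had a single tumour. With slide as a block 16 of the 21 remained called, without Top2a, Plk4, Nek2, Spc24 and Ncapd2; 8.44% of all genes were then lower. The reference channel differed by at most 0.1 between the groups for 41 of the 43 genes, the exceptions being Cdc25c and Cenpf.

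Markers of some other cell types differed between the groups. Of all genes, 12.2% were lower and 14.2% higher. Endothelial markers were lower in ALK/MYCN tumours in 8 of 10 measured genes, with tumour means on the same centred scale between -0.86 and 0.12 in ALK/MYCN and between 0.067 and 1.09 in MYCN tumours. Macrophage markers were lower in 7 of 9, with means between -0.72 and -0.18 in ALK/MYCN and between -0.18 and 0.90 in MYCN tumours. Fibroblast and pericyte markers were lower in only 2 of 10. Their means lay between -1.52 and 0.031 in ALK/MYCN tumours, inside the range of -1.58 to 2.13 in MYCN tumours. MYCN tumour 1, the highest in mitosis genes, was the lowest of all 10 in fibroblast and pericyte markers. MYCN tumour 4, the highest in all 3 marker lists, was the lowest MYCN tumour in mitosis genes. Other tumours went the other way. ALK/MYCN tumour 1, the lowest in mitosis genes at -0.27, was also the lowest in macrophage markers at -0.72. MYCN tumour 3, at 0.25 in mitosis genes, was at 0.86 in endothelial and 0.73 in macrophage markers, below only MYCN tumour 4. With the mean of these 3 lists as a covariate, 14 of the 43 mitosis genes were lower, with a median of -0.35, against 6.71% of all genes.

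Erythroid markers were lower in 3 of 4 measured genes, against 12.2% of all genes. Schwann cell markers were higher in 3 of 5, against 14.2%. The lymphocyte list had 1 lower gene of 6 measured, near the share of all genes. Markers of other tissues were high in some tumours. Adrenal cortex markers reached 4.12 in ALK/MYCN tumour 3 and lay between -0.58 and -0.25 in the other tumours. Skeletal muscle markers reached 2.36 and 5.42 in MYCN tumours 1 and 2, and adipocyte markers 2.50 in ALK/MYCN tumour 3 and 3.89 in MYCN tumour 4. Without those 4 tumours, a comparison of 4 ALK/MYCN with 2 MYCN tumours chosen after seeing the data, 11 of the 43 mitosis genes were lower, 0 were higher and the median was -0.31; 4.78% of all genes were then lower and 4.18% higher. The tumours left in that comparison still separated by adipocyte markers. These were at 1.47 and 0.89 in MYCN tumours 3 and 5, and between -2.19 and -1.29 in ALK/MYCN tumours 1, 2, 4 and 5. The part of other cell types in the result was not tested beyond these values.

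**Figure D4:**
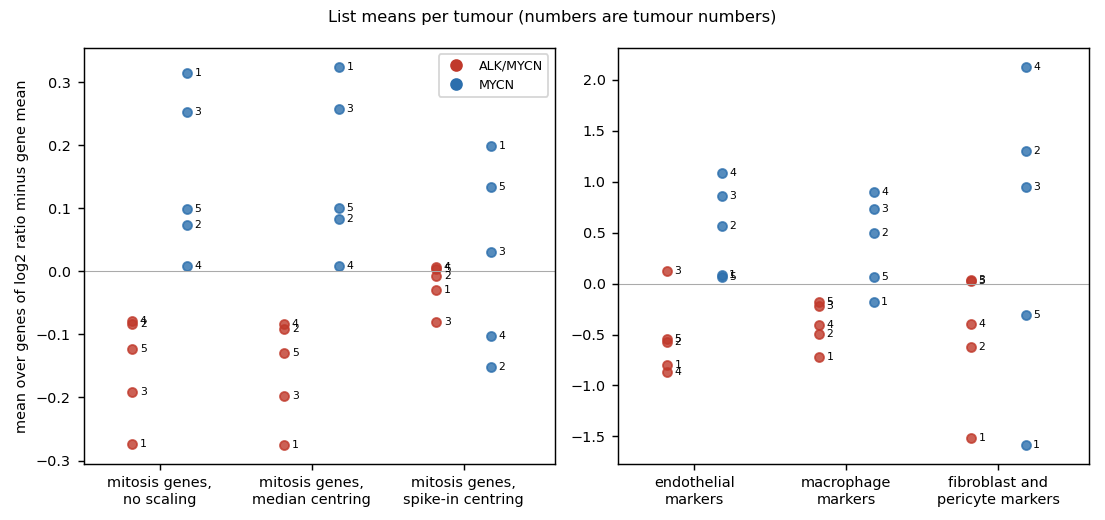
Mean over the genes of a list of the log2 ratio minus the gene's mean over 10 tumours (vertical axis), 1 point for each tumour with its number, ALK/MYCN left of MYCN in each pair. Left, the 43 mitosis genes without scaling, after median centring and after spike-in centring, where the groups separate on the first 2 scales and overlap on the third; right, markers of endothelium, macrophages, and fibroblasts and pericytes, where MYCN tumour 4 is the highest in each list.

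The promoters of these genes are shown because the MuvB complex binds a short element, the cell cycle genes homology region (CHR), near the start of many of them, often together with CCAAT boxes bound by NF-Y. RefSeq promoter windows (GRCm38.p6, from 250 bases before to 50 after the start) were given for 36 of the 44 genes. Searched on both strands, the CHR letters TTTGAA or TTCGAA were present in 26 of 36 (72.2%), against 21.7% of 27025 genes with a window. CCAAT was present in 27 of 36, against 41.1% of all genes, and both together in 24 (66.7%), against 8.61%. The E2F-like letters TTCCCGC were found in 1 gene, Plk4 (2.78%, against 5.29%), and the E-box CACGTG in 3 (8.33%, against 8.09%).

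These elements did not sort the genes that were lower from the rest. CHR letters were present in 10 of 16 genes that were lower (62.5%) and in 16 of 20 that were not called, and CCAAT in 13 of the 16 (81.2%) and 14 of the 20. Windows of 8 genes chosen after the values were seen follow, from 120 bases before to 30 after the start and read along the gene. Of these, 5 belong to genes that were lower (Ccnb2, Cdc20, Espl1, Cenpe and Mybl2) and 3 to genes that were not called (Ube2c, Prc1 and Cdk1). Capitals mark every match to a searched motif, and ATTGG and TTCAAA are CCAAT and TTTGAA read on the opposite strand.
Ccnb2: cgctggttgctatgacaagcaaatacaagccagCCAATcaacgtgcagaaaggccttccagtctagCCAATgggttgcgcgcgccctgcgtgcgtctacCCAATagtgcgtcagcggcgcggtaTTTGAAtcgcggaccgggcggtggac
Cdc20: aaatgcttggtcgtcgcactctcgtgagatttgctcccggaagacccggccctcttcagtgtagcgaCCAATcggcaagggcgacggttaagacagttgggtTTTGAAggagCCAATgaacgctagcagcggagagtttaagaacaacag
Espl1: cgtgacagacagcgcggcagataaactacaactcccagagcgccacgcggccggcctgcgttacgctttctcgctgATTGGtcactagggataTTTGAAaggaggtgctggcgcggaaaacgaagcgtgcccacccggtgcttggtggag
Cenpe: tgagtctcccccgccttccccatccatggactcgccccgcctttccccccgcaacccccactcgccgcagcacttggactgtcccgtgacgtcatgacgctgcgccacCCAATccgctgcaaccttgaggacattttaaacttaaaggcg
Mybl2: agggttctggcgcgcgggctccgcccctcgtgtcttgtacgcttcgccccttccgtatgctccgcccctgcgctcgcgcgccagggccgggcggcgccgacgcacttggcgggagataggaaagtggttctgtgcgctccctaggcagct
Ube2c: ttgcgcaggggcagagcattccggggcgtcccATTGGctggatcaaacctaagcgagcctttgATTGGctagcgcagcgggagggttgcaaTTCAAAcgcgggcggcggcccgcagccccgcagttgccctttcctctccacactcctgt
Prc1: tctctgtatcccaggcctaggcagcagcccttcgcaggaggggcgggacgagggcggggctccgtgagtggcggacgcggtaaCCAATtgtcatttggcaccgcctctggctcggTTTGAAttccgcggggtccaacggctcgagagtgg
Cdk1: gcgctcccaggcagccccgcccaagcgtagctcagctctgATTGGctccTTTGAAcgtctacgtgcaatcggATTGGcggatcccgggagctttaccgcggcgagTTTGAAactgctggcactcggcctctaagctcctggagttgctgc
In GRCm38.p6 they lie at chr9:70421525-70421674 (minus strand), chr4:118437314-118437463 (minus strand), chr15:102296173-102296322 (plus strand), chr3:135212443-135212592 (plus strand), chr2:163054515-163054664 (plus strand), chr2:164769809-164769958 (plus strand), chr7:80294331-80294480 (plus strand) and chr10:69352883-69353032 (minus strand). The Ccnb2 window holds 3 CCAAT boxes before a TTTGAA just past the start, and the Cdk1 window 2 of each. Ube2c, with the same pair of motifs as Cdc20 and Espl1, differed by 0.099 where Cdc20 differed by -0.63 and Espl1 by -0.62. The Mybl2 window holds none of the searched letters and the Cenpe window a CCAAT alone, and both genes were lower. Only exact matches to these letters were searched, so other forms of the same elements were not counted. A match is a description of the letters and not a bound site.

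Genes that work beside the 44 were read from 9 further lists of 134 genes, of which 133 were measured. Of all genes tested, 12.2% were lower and 14.2% higher, and 3.72% and 39.7% after spike-in centring. Each list count is to be read beside these shares. DNA replication genes were lower most often, in 14 of 20 with 0 higher and a median of -0.41, and in 5, with 2 higher, after spike-in centring. In the limma fit 0 were higher at an unadjusted p under 0.05 as well. Gins2, a subunit of the replicative helicase, averaged -1.11 ± 0.11 across ALK/MYCN tumours, against -0.29 ± 0.096 across MYCN tumours (SD, n = 5 each), and differed by -0.81 ± 0.073 (limma adjusted p = 0.000256). Cdc45, its partner in that helicase, differed by -0.58 ± 0.072 (limma adjusted p = 0.00075), and Rpa2, which coats single-stranded DNA, by -0.55 ± 0.069 (limma adjusted p = 0.000785). The groups did not overlap for any of these 3 genes.

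Other kinetochore and centromere genes were lower in 17 of 30, with 0 higher (0 also at an unadjusted p under 0.05 in limma). Their median was -0.27, and of all genes 12.2% were lower and 14.2% higher. After spike-in centring 3 were lower and 4 higher, against 3.72% and 39.7% of all genes. These shares also stand beside the centrosome and cohesin counts below. The count of 17 was 10 without ALK/MYCN tumour 1, 11 without ALK/MYCN tumour 3, ALK/MYCN tumour 5 or MYCN tumour 3, and 9 with the deposited value table. Spag5 (astrin), which steadies attached kinetochores, differed by -0.57 ± 0.092 (limma adjusted p = 0.00249), and Oip5, which helps to load the centromeric histone, by -0.45 ± 0.073 (limma adjusted p = 0.00257). With slide as a block 8 of the 30 were lower. Centrosome and spindle genes were lower in 7 of 19, with 0 higher (1 at an unadjusted p under 0.05 in limma), and 0 lower and 2 higher after spike-in centring. Without ALK/MYCN tumour 1, ALK/MYCN tumour 5 or MYCN tumour 3 the 7 became 4. Cep192, a centrosome scaffold, differed by -0.54 ± 0.097 (limma adjusted p = 0.00412), and Kif23, the kinesin of centralspindlin, by -0.40 ± 0.089 (limma adjusted p = 0.00967). Cohesin and its regulators were lower in 4 of 12 and higher in 1, and 0 lower and 3 higher after spike-in centring. Without ALK/MYCN tumour 1, ALK/MYCN tumour 3 or MYCN tumour 3 only 2 were lower, and without ALK/MYCN tumour 4 or 5 or MYCN tumour 2 or 5 the higher one was not called. Wapal, which releases cohesin, differed by -0.51 ± 0.11 (limma adjusted p = 0.00728) and Smc1a, a cohesin arm, by 0.28 ± 0.080 (limma adjusted p = 0.0281).

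Of 15 other subunits and regulators of the APC/C 2 were lower and 2 higher, with a median of 0.029, against 12.2% and 14.2% of all genes. After spike-in centring 1 was lower and 10 higher, against 3.72% and 39.7% of all genes. Leaving out single tumours gave 1 or 2 lower and 1 to 3 higher. Anapc1, its largest scaffold subunit, differed by -0.65 ± 0.094 (limma adjusted p = 0.00141), and Anapc10, a substrate-binding subunit, by 0.46 ± 0.10 (limma adjusted p = 0.0105), both without overlap of the groups. Of 14 measured genes of mitotic entry control 3 were lower and 1 higher, against the same 12.2% and 14.2% of all genes. After spike-in centring 1 was lower and 4 higher, against 3.72% and 39.7%. Bora, the Aurora A cofactor that helps to activate Plk1, averaged 0.57 ± 0.079 across ALK/MYCN tumours, against 1.24 ± 0.14 across MYCN tumours (SD, n = 5 each), and differed by -0.66 ± 0.080 (limma adjusted p = 0.000675). Arpp19, which inhibits the PP2A phosphatase in mitosis once Mastl has phosphorylated it, averaged 1.34 ± 0.14 across ALK/MYCN tumours, against 0.77 ± 0.13 across MYCN tumours (SD, n = 5 each), and differed by 0.57 ± 0.088 (limma adjusted p = 0.00195). Both were without overlap, so that 2 genes of mitotic entry moved in opposite directions.

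The MuvB and DREAM genes belong to complexes of opposite action. DREAM holds these promoters off in resting cells, and MuvB with B-Myb switches them on. Of 12, 0 were lower in the limma fit (1 at an unadjusted p under 0.05) and 1 was higher, with a median of -0.048. After median centring 1 was lower and after spike-in centring 2 were higher. Of all genes, 12.2% were lower and 14.2% higher, and 3.72% and 39.7% after spike-in centring. The same shares stand beside the CDK inhibitors below. The 1 higher gene was Tfdp2, a dimer partner of E2F factors, with a difference of 0.39 ± 0.11 (limma adjusted p = 0.0305), and it was not called without ALK/MYCN tumour 3 or 5 or MYCN tumour 1, 3 or 5. Of 7 CDK inhibitors 2 were higher, also after spike-in centring, and 0 were lower in the limma fit (0 at an unadjusted p under 0.05). Without ALK/MYCN tumour 4 or 5 or MYCN tumour 1, 1 was higher. Cdkn2d (p19), which binds Cdk4 and Cdk6, averaged 0.71 ± 0.29 across ALK/MYCN tumours, against -0.014 ± 0.17 across MYCN tumours (SD, n = 5 each), and differed by 0.72 ± 0.14 (limma adjusted p = 0.00538) without overlap. Cdkn1b (p27), which holds cyclin E and Cdk2 inactive, averaged 0.34 ± 0.14 across ALK/MYCN tumours, against 0.017 ± 0.13 across MYCN tumours (SD, n = 5 each), and differed by 0.32 ± 0.089 (limma adjusted p = 0.0246) with overlap. Over all 9 lists, 47 of 133 genes were lower and 7 higher, against 12.2% and 14.2% of all genes.

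**Figure D5:**
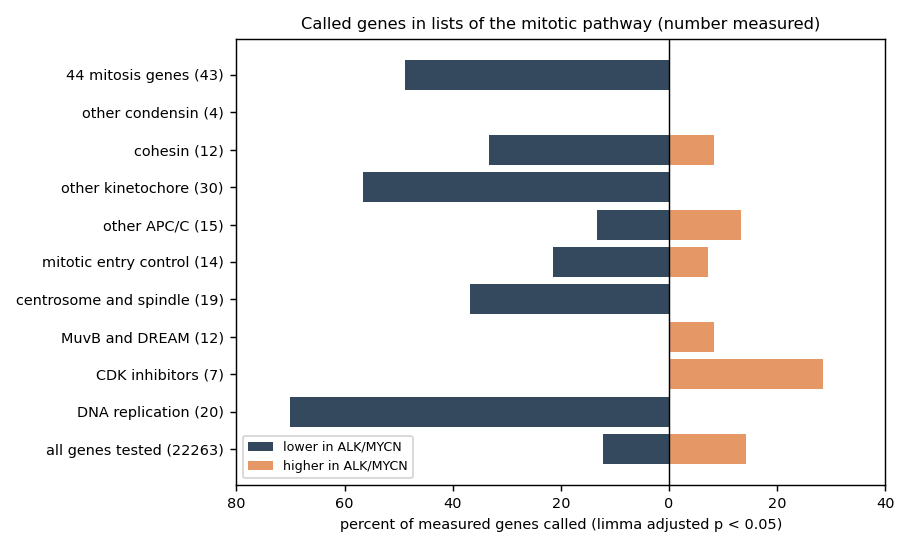
Percent of measured genes called (limma adjusted p under 0.05) lower in ALK/MYCN tumours (left of 0) and higher (right of 0) in the 44 mitosis genes, 9 further lists of the pathway and all genes tested, with the number measured in brackets. The bars to the left are longest for DNA replication and other kinetochore genes, and after spike-in centring, not drawn, fewer genes of each of these 2 lists were lower.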

How the data were processed

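Per the file headers, the authors read spot intensities of both channels with Agilent Feature Extraction (version 10.7.3.1) and placed probes on mm9. A deposited value table gives log2 ratios; set against the arrays, these equal log2 of scanner-processed Cy3 over Cy5 within 5.01e-04 (column medians -0.186 to -0.035), and they served as an alternative. Later steps of the authors are not stated in the labels.

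Starting from deposited intensities, mean signals were corrected with normexp (offset 50) against the median local background and normalised within arrays by loess (controls at weight 0), as tumour over reference and without scaling between arrays. Outlier spots, 177 to 345 an array, became missing values, and 0 spots were saturated. Probes entered when Cy3 was well above background on 5 or more arrays of 10, and each gene took its probe of highest mean intensity. Dyes were not swapped, so each ratio may carry a dye bias, common to both groups.

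Groups were compared in R 4.3.3 by limma 3.58.1 (two-sided moderated test, lmFit then eBayes), Benjamini-Hochberg adjusted over all 22263 genes at 0.05. The procedure was tested on simulated data. The members and gene lists were chosen with earlier results of these data known, so their counts are descriptions and no list was tested as a list. Within each role the tumour values given are those of up to 3 genes with the smallest p and of the uncalled gene with the largest difference; in other lists up to 3 genes of smallest p were named, except 1 gene that is not reported here. The 28 alternatives were other scalings, signals, background corrections, filters, probe summaries, variance models, blocks, a stromal covariate and the removal of tumours, one of them added after seeing the data. Replicate numbers did not pair the tumours (correlations of deviations 0.34, -0.020, -0.081, -0.091 and -0.061). Promoter sequences are from RefSeq, GRCm38.p6; no annotation of mm9 was used, so the exon or UTR of a probe is not given.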

Additional observations from a re-analysis of the deposited data

Results flagged for a closer look

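In 7 of 86 sets of 5 values (43 genes in each group) 1 tumour stood apart from the other 4 by Dixon's ratio, above 0.71. Chance gives about 1 in 20 such sets. ALK/MYCN tumour 2 did so for Bub1b, at 0.10 against -0.10 to -0.056 in the other ALK/MYCN tumours, for Tpx2, at -0.37 against -0.51 to -0.48, and for Racgap1, at -0.49 against -1.10 to -0.93. ALK/MYCN tumour 1 stood apart for Pttg1, at -0.80 against -0.45 to -0.34. ALK/MYCN tumour 4 was higher for Ect2, at 0.50 against 0.18 to 0.22. Among MYCN tumours, tumour 5 was lower for Mad2l1, at -0.30 against -0.062 to 0.033, and tumour 2 was higher for Spc24, at 0.36 against 0.16 to 0.20.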

How the results depend on the processing

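Of 1204 pairs of a mitosis gene and an alternative, 1054 kept both the direction and the side of the threshold, 97 lost the call, 7 gained one and 46 changed sign; no gene that was lower changed sign. The count of 21 lower genes lay between 17 and 22 and the median of the 43 between -0.34 and -0.24 when each tumour was left out, and the count lay between 11 and 23 under the alternatives other than those and spike-in centring. It was 13 with the replicate number as a block, where it is not settled whether the numbers pair the tumours. The count was 11 without ALK/MYCN tumour 3 and MYCN tumours 1, 2 and 4, where fewer tumours were compared. Spike-in centring gave 6 lower, 3 higher and a median of -0.019, and it turned positive Mki67 (0.035), Ccna2 (0.083), Cdk1 (0.16), Cdc25b (0.18), Aurka (0.057), Birc5 (0.007), Cdca8 (0.004), Mad2l1 (0.15), Pttg1 (0.20), Cenpf (0.16), Spc25 (0.16), Hmmr (0.24), Ect2 (0.007), Racgap1 (0.015), Anln (0.24), Smc2 (0.21) and Ncaph (0.061). Bub3 turned negative with scale normalisation (-0.020), scanner-processed signals and the deposited table (-0.008 each), Cy3 alone (-0.046), without ALK/MYCN 3, MYCN 2 and MYCN 5 (-0.052) and without the 4 tumours above (-0.029). Anln turned positive with scale normalisation (0.030), the stromal covariate (0.018) and without those 4 tumours (0.042), Mad2l1 with the mean over probes (0.026), Cenpf with Cy3 alone (0.24), and Pttg1 (0.001) and Hmmr (0.024) with slide as a block. Leaving out single tumours moved Cdc25b between -0.13 and 0.008, Bub3 between -0.049 and 0.10, Pttg1 between -0.092 and 0.024, Spc25 between -0.16 and 0.009, Hmmr between -0.051 and 0.042, Anln between -0.078 and 0.044 and Alk between -0.059 and 0.27. The Alk probe was at -0.20 with scale normalisation, -0.13 with scanner-processed signals and the deposited table and -0.007 without the 4 tumours. Of 504 counts of lower or higher genes in the further lists, 106 moved by over 1.5 times. Over all genes, 2723 were lower and 3169 higher, against 829 and 8836 after spike-in centring and 1063 and 930 without the 4 tumours; without ALK/MYCN tumour 5 alone 1771 were lower. The causes of these changes were not tested. With 5 tumours a group, small differences could not be told from the spread between tumours.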
